A study of Mus musculus with 27 samples.

Results

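The genes described here are those whose response to tumour necrosis factor (TNF) differed between small intestinal organoids and the epithelial cell line m-ICc12. They were chosen by an interaction test, which asks of each gene whether the change between the pair of libraries of a culture is the same in both kinds of cell. The comparison used 18 of the 27 libraries of the series, namely 6 organoid cultures and 3 m-ICc12 cultures with a pair of libraries each. Of 13340 genes tested, 39 differed at an adjusted p under 0.05 (0.292% of the genes tested).

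TNF is an inflammatory cytokine that binds receptors on epithelial cells and frees NF-kB transcription factors from their inhibitors. NF-kB then switches on genes for its own inhibitors, chemokines, complement and acute-phase proteins, and adhesion molecules. In the gut epithelium this programme is part of the defence against microbes, and it also changes contacts of cells with each other and with the matrix.

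The organoids were grown from crypts of the distal jejunum of wild-type C57BL/6J mice. The donors were cohoused male littermates aged 8 to 12 weeks, 3 from each of the specific pathogen-free (SPF) facilities SR (cultures Z908 to Z910) and SE (Z911 to Z913), and the cultures were used at passage 5 to 8. m-ICc12 is an immortalised mouse line of small intestinal epithelial origin, kept in a medium with insulin, dexamethasone and EGF, so that its 3 cultures (M1 to M3) are cultures of 1 line and not of 3 animals. Treated cultures received 5 ng/mL murine TNF for 8 hr and their untreated partners a change of medium. Organoids of germ-free (GF) mice of the same strain and age (3 cultures) and untreated mouse embryonic fibroblasts (MEFs, 3 libraries) did not enter the comparison and are named only as a reference.

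The treatment of a library is recorded in conflicting ways. The name of each deposited file carries a code, ending in T or plain, and the study's own naming uses T for TNF-treated samples. The sample labels give the reverse in all 18 libraries. Here the code was followed, and "rose" or "fell" means higher or lower in the T-coded library of a culture. By label every direction turns around, whereas no p value and no pattern changes. Known TNF targets were higher in the T-coded library: Nfkbia, Tnfaip3, Nfkb2 and Relb, which encode inhibitors and subunits of the NF-kB pathway, were higher in 6 of 6 organoid, 3 of 3 m-ICc12 and 3 of 3 GF cultures. The chemokine genes Cxcl1 and Ccl2, which organoids hardly expressed, were higher in 5 of 6 and 3 of 6 organoid cultures, and in 3 of 3 m-ICc12 and 3 of 3 GF cultures.

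Reads counted on genes numbered 11440041 to 34826223 in the organoid and 6071103 to 43843615 in the m-ICc12 libraries. The plain-coded library of M1 stood apart. It was the shallowest, and 13.5% of its counts fell on Lars2 (4.44% in the plain-coded library of M3, at most 0.688% in all other libraries of the series). Levels are given as CPM, the counts of a gene per 1000000 counts, on TMM-scaled library sizes. The summed level of 6 pan-epithelial markers was 5819 to 7070 CPM in organoids and 1558 to 2128 CPM in m-ICc12 cells, against 17.0 to 20.0 CPM in MEFs. The sum of 6 enterocyte markers was 1872 to 4891 CPM in organoids, 2.18 to 7.90 CPM in the T-coded and 7.14 to 24.6 CPM in the plain-coded m-ICc12 libraries. Goblet, Paneth, enteroendocrine, tuft and stem cell markers summed to at most 14.7 CPM each in any m-ICc12 library. Of the 6 pan-epithelial markers, 4 (Epcam, Cdh1, Krt19 and Cldn7) had a mean in m-ICc12 cells under 1% of that in organoids. The m-ICc12 sum therefore came nearly all from Krt8 and Krt18. m-ICc12 cells thus carried these keratins, and the other pan-epithelial and the lineage markers at a low level. In bulk RNA, fewer cells of a type and less RNA per cell cannot be told apart.

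Of the 39 genes, 32 had the higher log2 response in organoids (0.24% of the genes tested) and 7 in m-ICc12 cells (0.0525%). A gene was said to respond in a cell group where its p did not exceed 0.05 and its log2 response reached 0.5 in size (4.3% of all genes in organoids and 4.9% in m-ICc12 cells). With an adjusted p alone, 0.87% of all genes responded in organoids and 0.63% in m-ICc12 cells. With the p and fold rule, 8 genes responded in organoids only, 25 in m-ICc12 cells only and 4 in opposite directions. One gene is left in each of the other classes: C3 rose in both with a different size, and Uaca reached the fold in neither. With the study's thresholds applied to the difference itself (unadjusted p of at most 0.05, size of at least 0.5), 805 genes differed (6.03%; 2.32% with the higher response in m-ICc12 cells and 3.71% in organoids), and by unadjusted p alone 959 (7.19%). Of the 805, 394 belonged to the m-ICc12-only, 179 to the organoid-only and 10 to the opposite class. The genes described are the 39 with an adjusted p under 0.05.

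**Figure D1:**
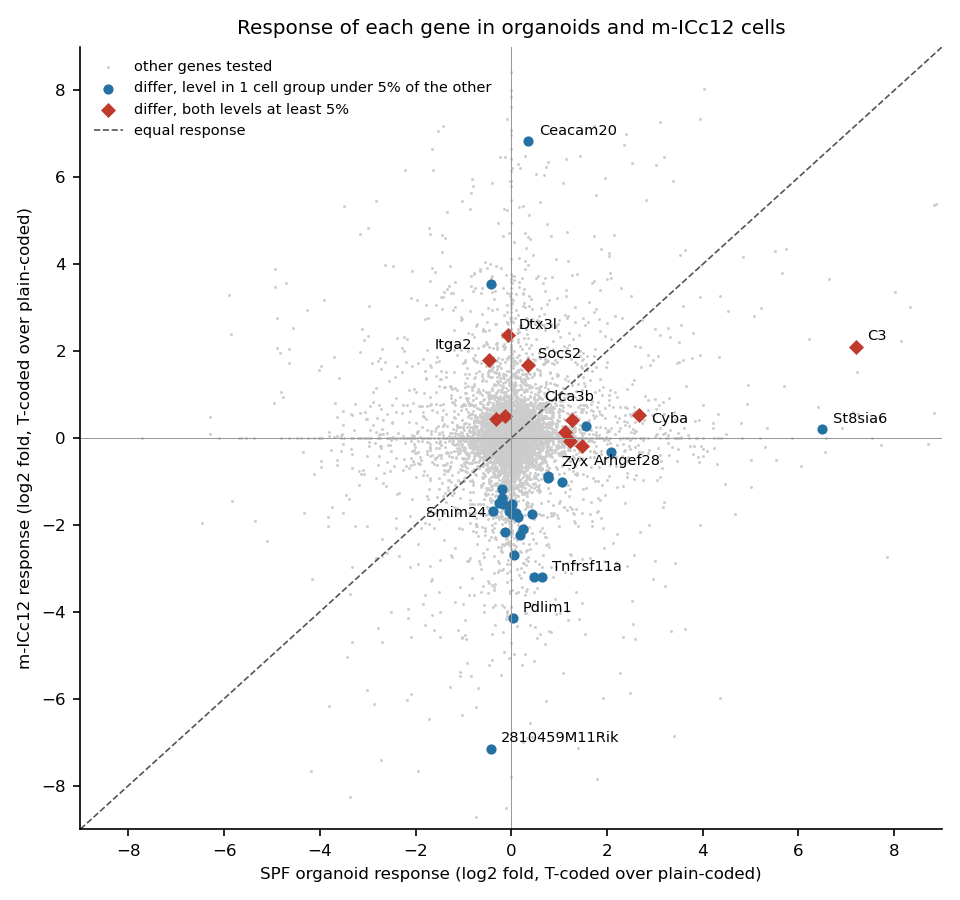
Log2 response of every gene tested in SPF organoids (x axis) and m-ICc12 cells (y axis), T-coded over plain-coded. Grey points are the other genes, diamonds the 11 members whose lower level is at least 5% of the higher, blue points the other 28 members, and the dashed line marks equal responses. The axes end at 9 in either direction, beyond which 5 other genes lie. Diamonds such as C3, Cyba and Zyx lie to the right below the line, Itga2, Dtx3l and Socs2 above it, and most blue points lie near 0 on the x axis and below 0 on the y axis.

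The members split by how the cells expressed them. For 11 genes the lower of both mean levels was at least 5% of the higher (0.101% of the 10873 such genes tested), whereas for 28 genes it was under 5% (1.13% of 2467). Closest to this limit were Guca2b at 4.03% and C3 at 7.34%. The limit was set after the values were seen. The 11 genes expressed in both were Zyx, Cyba, Arhgef28, Tmem176b and Tcim (organoid only), Itga2, Socs2, Tspan8 and Dtx3l (m-ICc12 only), C3 and Uaca. All 4 opposite genes and 21 of the 25 m-ICc12-only genes had a level in m-ICc12 cells under 5% of that in organoids.

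**Figure D2:**
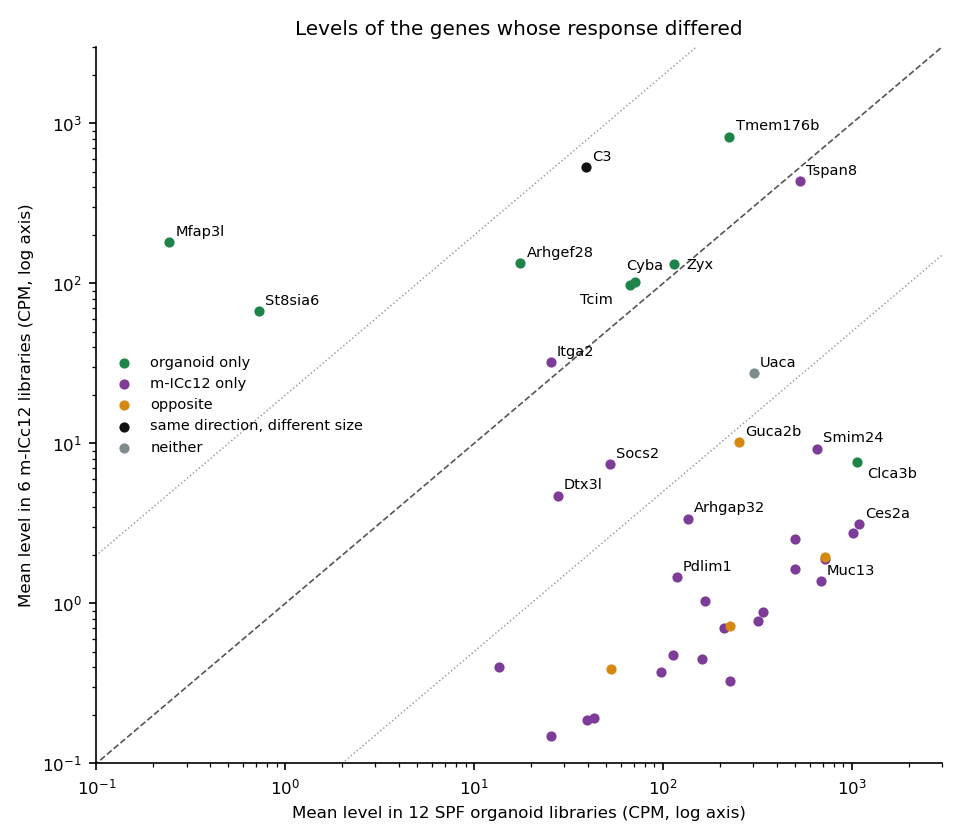
Mean level of the 39 genes in the 12 SPF organoid libraries (x axis) and the 6 m-ICc12 libraries (y axis), in CPM on log axes, coloured by pattern. The dashed line marks equal levels and the dotted lines a ratio of 5%. The opposite genes and most m-ICc12-only genes lie below the lower dotted line, and Mfap3l and St8sia6 above the upper one.

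The sequences upstream of 4 members are shown because they rose or fell differently while both cell types expressed them. Each is the RefSeq window (GRCm38.p6) from 250 bases before to 50 bases after a transcription start, on the strand of the gene. For a gene with several windows, the one with the most NF-kB matches was taken. In the counts of genes, a gene held a match if any of its windows did. Capitals mark a match to the NF-kB consensus, searched on both strands. The windows are chr6:42349578-42349877 on the plus strand for Zyx, chr8:122432891-122433190 on the minus strand for Cyba, chr13:114932051-114932350 on the minus strand for Itga2 and chr6:48841325-48841624 on the minus strand for Tmem176b.
Zyx: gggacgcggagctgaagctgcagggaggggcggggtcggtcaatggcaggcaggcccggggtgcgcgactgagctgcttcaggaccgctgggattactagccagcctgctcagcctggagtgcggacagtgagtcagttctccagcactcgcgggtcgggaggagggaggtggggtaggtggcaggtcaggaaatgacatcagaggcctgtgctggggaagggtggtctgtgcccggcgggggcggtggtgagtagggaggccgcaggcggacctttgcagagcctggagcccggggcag
Cyba: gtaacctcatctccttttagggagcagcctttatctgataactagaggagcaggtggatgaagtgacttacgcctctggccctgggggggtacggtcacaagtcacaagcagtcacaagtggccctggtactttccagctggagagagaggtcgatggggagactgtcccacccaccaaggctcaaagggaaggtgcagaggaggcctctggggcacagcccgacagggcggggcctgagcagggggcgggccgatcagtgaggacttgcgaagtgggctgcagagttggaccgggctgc
Itga2: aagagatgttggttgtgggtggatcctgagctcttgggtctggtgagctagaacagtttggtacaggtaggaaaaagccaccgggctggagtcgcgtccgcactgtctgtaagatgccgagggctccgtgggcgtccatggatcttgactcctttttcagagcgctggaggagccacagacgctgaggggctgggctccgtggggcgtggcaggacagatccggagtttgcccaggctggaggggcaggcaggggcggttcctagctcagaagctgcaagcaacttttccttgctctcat
Tmem176b: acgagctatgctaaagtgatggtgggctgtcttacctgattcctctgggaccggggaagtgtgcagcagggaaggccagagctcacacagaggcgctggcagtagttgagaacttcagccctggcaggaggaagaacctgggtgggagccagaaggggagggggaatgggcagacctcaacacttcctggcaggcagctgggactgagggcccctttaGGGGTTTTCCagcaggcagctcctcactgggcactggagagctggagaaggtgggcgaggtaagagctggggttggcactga
Tmem176b held 1 match, with its first base 32 bases before the start, and the other 3 windows held none. Of the 34 members with a window, 7 held a match (20.6%), against 9.55% of 27025 genes with a window and 4 of 4 known TNF targets (Nfkbia, Tnfaip3, Nfkb2 and Cxcl1). The consensus of the serum response factor, the CArG box, was found in 0 of the 34 members and in 1.81% of all genes. A match in these letters is a description of the window and not a binding site.

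Among the organoid-only genes expressed in both, Zyx encodes zyxin, a LIM domain protein of focal adhesions and actin stress fibres (chr6:42349630-42360213). In organoids its level was 124, 164 and 186 CPM (lowest, median and highest of 6) in the T-coded and 58.3, 66.0 and 81.6 CPM in the plain-coded libraries. In m-ICc12 cells it was 142, 116 and 127 CPM in the T-coded libraries of M1, M2 and M3 and 151, 120.3 and 131 CPM in their plain-coded partners. Every T-coded organoid library thus lay above every plain-coded one and within or above the range of m-ICc12 cells, whereas the codes overlapped in m-ICc12 cells. Codes that do not overlap were seen for 0.937% of all genes in organoids and 8.83% in m-ICc12 cells. The log2 response was 1.23 ± 0.08 (SE, 6 cultures) in organoids and -0.06 ± 0.12 (SE, 3 cultures) in m-ICc12 cells. The difference, m-ICc12 minus organoid, was -1.29 ± 0.14 (adjusted p = 0.00052 in edgeR's quasi-likelihood test, as for all adjusted p values below).

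Cyba encodes p22phox, the membrane subunit that NADPH oxidases need to produce superoxide (chr8:122424776-122432930). It was the only one of 9 tested NADPH and dual oxidase genes to differ. T-coded organoids held 90.3, 122 and 154 CPM and plain-coded ones 13.3, 18.3 and 27.9 CPM, again without overlap. m-ICc12 cells held 149, 108 and 101 CPM (T-coded, M1 to M3) and 50.7, 109.6 and 90.0 CPM (plain-coded). The level rose in organoids up to that of m-ICc12 cells, where the libraries of M1 lay further apart than those of M2 and M3. The responses were 2.66 ± 0.19 in organoids and 0.53 ± 0.25 in m-ICc12 cells (adjusted p = 0.71), with a difference of -2.13 ± 0.31 (adjusted p = 0.0062). The m-ICc12 response reached the fold threshold, and its unadjusted p of 0.0504 (same test) only just missed the limit of 0.05. Cyba thus lay at the edge of the organoid-only class. Without M1 the difference was -2.59 (adjusted p = 0.00014). The annotated gene Gm20388 covers all 8155 bases of Cyba on the other strand, and its counts gave a difference of -0.02. Epha1 shares 1727 bases with Zyx on the other strand, and its counts gave a difference of -3.19 (adjusted p = 0.075) at a mean of 53.3 CPM in organoids and 0.875 CPM in m-ICc12 cells, in the same direction as Zyx. Tmem176a shares 578 bases with Tmem176b on the other strand and had a difference of -0.51 (adjusted p = 0.43), also in the same direction. The part of shared reads in these results was not tested.

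Arhgef28 encodes a guanine nucleotide exchange factor for small GTPases (chr13:97899469-98206439). Organoids held 12.8, 25.1 and 45.5 CPM in T-coded and 4.99, 8.38 and 16.4 CPM in plain-coded libraries, with overlap between cultures but a higher T-coded library in 6 of 6 cultures. m-ICc12 cells held 113, 145 and 118 CPM (T-coded) and 146, 141 and 138 CPM (plain-coded). The gene was higher in every m-ICc12 library than in any organoid library, and only the organoid cultures moved together. The difference was -1.66 ± 0.25 (adjusted p = 0.0063), from 1.47 ± 0.15 in organoids and -0.19 ± 0.20 in m-ICc12 cells.

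Tmem176b and Tcim are organoid-only by the fold threshold, and both were also higher in all 3 T-coded m-ICc12 libraries. Tmem176b encodes an ion channel-like membrane protein of the MS4A family (chr6:48833818-48841496). Its level was 289, 307 and 368 CPM in T-coded and 84.4, 134 and 183 CPM in plain-coded organoids, and 974, 1014 and 831 CPM against 690.5, 816 and 623 CPM in m-ICc12 cells. Codes overlapped in neither cell type. The m-ICc12 response of 0.40 ± 0.13 was below the fold threshold (adjusted p = 0.35) and that of organoids was 1.27 ± 0.10, with a difference of -0.87 ± 0.16 (adjusted p = 0.036). Tcim, a regulator linked to Wnt and NF-kB signalling, held 79.3, 86.8 and 119.6 CPM in T-coded and 29.96, 42.7 and 53.5 CPM in plain-coded organoids. In m-ICc12 cells it held 102, 116 and 90.4 CPM against 87.5, 107 and 83.5 CPM. The organoid response of 1.12 ± 0.11 exceeded that of m-ICc12 cells (0.14 ± 0.15) by a difference of -0.97 ± 0.19 (adjusted p = 0.043), and leaving out any 1 of the 3 m-ICc12 cultures gave adjusted p values from 0.060 to 0.12.

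Clca3b, St8sia6 and Mfap3l complete the organoid-only genes and were expressed in 1 cell type far above the other. Clca3b, of the calcium-activated chloride channel regulator family, held 1152, 1656 and 1850.3 CPM in T-coded and 399.8, 536 and 648 CPM in plain-coded organoids, without overlap. In m-ICc12 cells it held 7.40, 7.16 and 9.66 CPM against 11.0045, 5.30 and 5.65 CPM, so that M1 moved the other way from M2 and M3. Its difference was -1.30 ± 0.21 (adjusted p = 0.015), and -0.97 without M1 (adjusted p = 0.0077). Reads of Clca3b and of its close relative Clca4b may be shared between the copies. Mfap3l, a membrane glycoprotein gene, held at most 0.786 CPM in organoids (24 counts) and 144 to 206 CPM in m-ICc12 cells, so that its organoid response of 2.09 ± 0.37 rests on few reads. St8sia6, a sialyltransferase gene, had 84 and 145 counts in the T-coded organoid libraries of Z909 and Z911 and at most 3 counts in the other 10 organoid libraries. No fold is read from St8sia6 in organoids, since it was below background there.

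C3 encodes the central component of complement, which epithelial cells make in response to inflammatory cytokines (chr17:57203970-57228136). T-coded organoids held 20.0, 48.0 and 248 CPM and plain-coded ones 0.128, 0.429 and 1.26 CPM. m-ICc12 cells held 873, 1101 and 622 CPM (T-coded) and 197, 211 and 179 CPM (plain-coded). C3 rose in both cell types without overlap of the codes, and its plain-coded level in m-ICc12 cells lay above the T-coded level of 5 of 6 organoid cultures. The response was 7.21 ± 0.33 in organoids and 2.11 ± 0.30 in m-ICc12 cells (difference -5.11 ± 0.46, adjusted p = 5.1e-05).

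**Figure D3:**
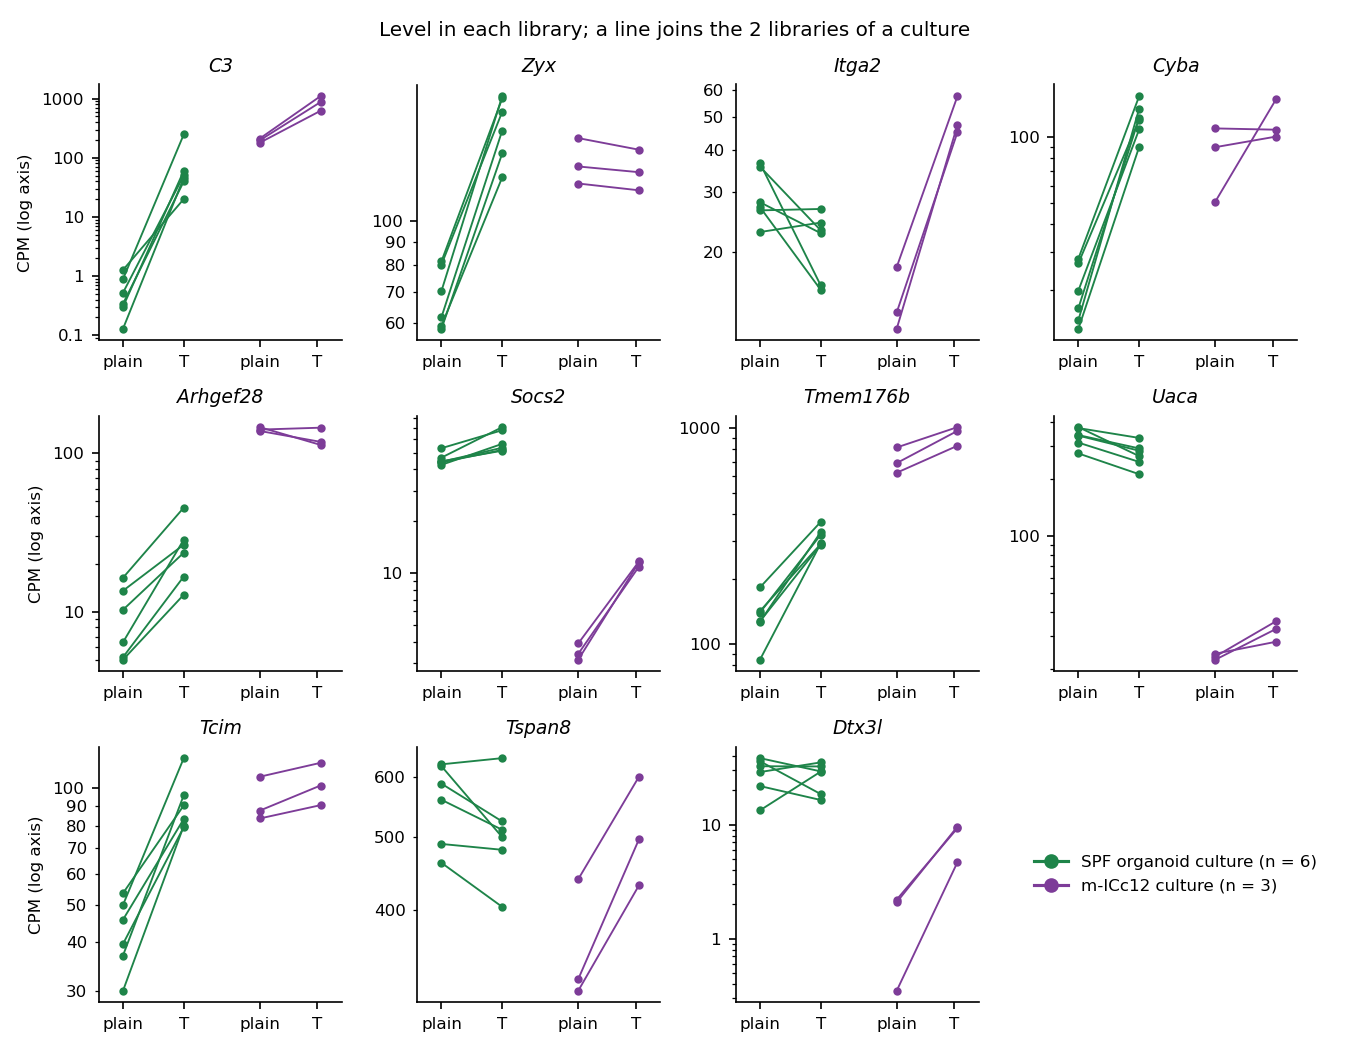
Level in CPM (log axis) of the 11 members expressed in both cell types, in each plain-coded and T-coded library, with a line joining the libraries of a culture (green, 6 SPF organoid cultures, and purple, 3 m-ICc12 cultures). In Zyx and Arhgef28 only the green lines rise, in Itga2 the purple lines rise from 11.9 to 18.1 up to 45.1 to 57.6 CPM while most green lines fall, and in C3 both rise.

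Of the m-ICc12-only genes expressed in both, Itga2 encodes the alpha 2 subunit of a collagen-binding integrin (chr13:114833081-114932100). It held 45.1, 47.4 and 57.6 CPM in the T-coded and 13.3, 11.9 and 18.1 CPM in the plain-coded libraries of M1 to M3, without overlap. T-coded organoids held 15.5, 22.96 and 26.8 CPM and plain-coded ones 22.9, 27.6 and 36.6 CPM, with overlap and with a lower T-coded library in 4 of 6 cultures. The m-ICc12 response was 1.81 ± 0.27 and that of organoids -0.47 ± 0.19 (adjusted p = 0.45, just under the fold threshold), with a difference of 2.27 ± 0.33 (adjusted p = 0.0054). In m-ICc12 cells Itga2 thus rose from below to above the level of organoids. In GF organoids, T-coded libraries held 8.27 to 22.03 CPM and plain-coded ones 25.5 to 30.8 CPM (log2 response -0.96 ± 0.29, adjusted p = 0.14). MEFs held at most 0.12 CPM.

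Socs2, Dtx3l and Tspan8 are named because they complete these genes, a choice made after their values were seen, as for Uaca. Socs2 encodes a suppressor of cytokine signalling that restrains growth hormone signals. It held 11.6, 11.7 and 10.9 CPM against 3.14, 3.91 and 3.40 CPM in m-ICc12 cells, and 51.3, 54.9 and 70.4 CPM against 42.5, 44.4 and 53.1 CPM in organoids. Every T-coded library exceeded its partner in both cell types, by 1.69 ± 0.20 in m-ICc12 cells and by 0.35 ± 0.13 in organoids (difference 1.34 ± 0.23, adjusted p = 0.023). Dtx3l, an E3 ubiquitin ligase that acts with Parp9 in the interferon and DNA damage responses, held 4.69, 9.64 and 9.33 CPM against 0.349, 2.09 and 2.204 CPM in m-ICc12 cells. Its organoid range of 16.5 to 35.2 CPM in T-coded libraries lay within that of plain-coded ones (13.4 to 38.4 CPM), and the difference was 2.44 ± 0.48 (adjusted p = 0.046). Tspan8, a tetraspanin gene, held 496, 599.9 and 432 CPM against 325, 439.7 and 314 CPM in m-ICc12 cells and 404 to 634 against 462 to 623 CPM in organoids. The codes of Tspan8 overlapped in both cell types, and its difference of 0.63 ± 0.12 (adjusted p = 0.045) was the smallest in size of the 39.

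Uaca, which encodes an ankyrin and coiled-coil protein linked to apoptosis, reached the fold in neither cell type. Organoids held 212, 273 and 329 CPM in T-coded and 273, 339.9 and 375 CPM in plain-coded libraries, with a lower T-coded library in 6 of 6 cultures. m-ICc12 cells held 35.6, 32.5 and 27.8 CPM against 23.2, 22.4 and 24.1 CPM, with a higher T-coded library in 3 of 3 cultures. The signs were opposite, -0.31 ± 0.08 in organoids and 0.44 ± 0.12 in m-ICc12 cells, and the difference was 0.75 ± 0.14 (adjusted p = 0.039).

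The other m-ICc12-only genes number 21, and all had a level in m-ICc12 cells under 5% of that in organoids. In m-ICc12 cells 19 of the 21 fell and 2 rose. Smim24 encodes a small integral membrane protein found in the brush border list. Its level was 3.91, 4.79 and 3.64 CPM in T-coded and 22.5, 11.8 and 8.96 CPM in plain-coded m-ICc12 libraries, without overlap. Organoids held 549, 642 and 731 against 536, 683 and 747 CPM. The level fell in all 3 m-ICc12 cultures from an already low value, and the organoid codes overlapped over nearly their whole range. The m-ICc12 response was -1.67 ± 0.19 and that of organoids -0.05 ± 0.11 (difference -1.63 ± 0.22, adjusted p = 0.0031; without M1, -1.25 and adjusted p = 0.00047).

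Muc13, which encodes a transmembrane mucin of the brush border, held 1.17, 0.413 and 0.335 CPM against 3.67, 1.39 and 1.25 CPM in m-ICc12 cells. Organoids held 634 to 772 against 608 to 725 CPM. The difference was -1.77 ± 0.19 (adjusted p = 0.00045), and it kept this size without M1 (-1.82). MEFs held 0.552 to 1.01 CPM of Muc13, so that its T-coded level in m-ICc12 cells was near that of fibroblasts. Pdlim1 encodes a PDZ and LIM domain protein that links alpha-actinin to stress fibres. It had 8, 5 and 2 counts in T-coded and 38, 43 and 12 counts in plain-coded m-ICc12 libraries of M1 to M3, although the T-coded libraries were deeper in every culture. In organoids it held 101 to 143 against 103 to 150.4 CPM, and MEFs held 180.2 to 199 CPM. Pdlim1 had the smallest p of all genes, with a difference of -4.18 ± 0.34 (adjusted p = 2.3e-05; -3.42 without M1).

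Further genes are named by the rank of their p. Mall, a raft protein of the MAL family, was below background in m-ICc12 cells, where it had 6, 2 and 3 counts in T-coded and 6, 8 and 14 counts in plain-coded libraries, and it passed the filter through organoids (68.1 to 132 CPM). Its fitted difference of -2.76 ± 0.39 (adjusted p = 0.0047) rests on these few reads. The carboxylesterases Ces2a and Ces2e, which hydrolyse esters and lipids, differed by -1.25 ± 0.19 and -1.20 ± 0.18 (adjusted p = 0.0076 and 0.0080), and reads of these close paralogs may be shared. Myo1a, the brush border myosin, differed by -1.54 ± 0.25 (adjusted p = 0.014). Acot11, an acyl-CoA thioesterase, was below background in m-ICc12 cells, with 2, 1 and 1 counts in T-coded against 2, 3 and 13 counts in plain-coded libraries of M1 to M3, so that its adjusted p of 0.015 rests on the plain-coded library of M3 and no fold is read. Arhgap32, a GTPase-activating protein, differed by -1.33 ± 0.22 (adjusted p = 0.016), with 2.74, 1.41 and 1.46 against 4.89, 4.66 and 5.13 CPM in m-ICc12 cells. In Ces2a, Ces2e, Myo1a and Arhgap32 the organoid response lay between -0.25 and 0.02 and the m-ICc12 response between -1.53 and -1.39. Ces2a held 1.05 to 2.59 against 2.01 to 7.51 CPM in m-ICc12 cells (T-coded against plain-coded). Ces2e held 0.526 to 1.89 against 1.29 to 5.76 CPM there, and Myo1a 0.215 to 0.758 against 0.719 to 1.92 CPM. MEFs held 1.10 to 2.21 CPM of Ces2a, 1.90 to 5.46 CPM of Ces2e and 0.914 to 2.36 CPM of Myo1a. The m-ICc12 levels of Ces2a, Ces2e and Myo1a were thus near those of fibroblasts.

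Among the remaining members of the class, Ccnd2 (cyclin D2) fell by 1.68 on the log2 scale in m-ICc12 cells, and its organoid response of -0.39 ± 0.08 was below the fold threshold but passed the adjusted test (adjusted p = 0.039). Its difference of -1.29 ± 0.23 (adjusted p = 0.025) was -0.96 without M1 (adjusted p = 0.13). Fabp2, the intestinal fatty acid-binding protein gene, lay nearest inside the threshold with -2.04 ± 0.41 (adjusted p = 0.04996), and Tm4sf5 nearest outside it with -1.99 ± 0.40 (adjusted p = 0.0501). Ces2g and Ceacam20 were the genes that rose, and this rests on the T-coded library of M2. Ces2g had 47 counts there and at most 3 counts in each of the other 5 m-ICc12 libraries, and Ceacam20 had 40 counts there and at most 1 count elsewhere. 2810459M11Rik had 0 counts in all 3 T-coded libraries and 12, 9 and 1 counts in the plain-coded ones of M1, M2 and M3. No fold is read for Ces2g, Ceacam20 and 2810459M11Rik in m-ICc12 cells. The other 7 genes (Tmem45b, Cyp2b10, Aldh1b1, Abcb1a, Ap1m2, Cldn3 and Plch2) had differences from -2.41 to -0.99 at mean levels of 0.325 to 2.74 CPM in m-ICc12 cells. Of the 25 m-ICc12-only genes, 7 were below background in m-ICc12 cells and passed the filter through organoids, namely Mall, Acot11, Tmem45b, Ces2g, Ceacam20, 2810459M11Rik and Plch2.

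The 4 opposite genes rose in all 6 organoid cultures. Guca2b encodes uroguanylin, a peptide hormone of the gut that stimulates fluid secretion. It held 197, 262 and 601 CPM in T-coded and 136, 161 and 309.7 CPM in plain-coded organoids, and 13.8, 5.37 and 3.37 against 20.1, 10.5 and 7.95 CPM in m-ICc12 cells. Each culture moved in the direction of its cell type although the codes overlapped, with 0.77 ± 0.10 in organoids, -0.92 ± 0.16 in m-ICc12 cells and a difference of -1.68 ± 0.19 (adjusted p = 0.00060). Clca4b, of the same family as Clca3b, held 691, 895 and 1148 against 309, 556 and 789.9 CPM in organoids and 1.92, 1.24 and 0.717 against 4.72, 1.58 and 1.58 CPM in m-ICc12 cells (difference -1.63 ± 0.29, adjusted p = 0.025). Pglyrp1, a peptidoglycan recognition protein that kills bacteria, held 234, 298 and 379 against 105, 144 and 189.6 CPM in organoids, without overlap. In m-ICc12 cells Pglyrp1 held 0.700, 0.522 and 0.143 against 1.57, 0.482 and 0.910 CPM, where M2 moved against M1 and M3 (difference -2.05 ± 0.41, adjusted p = 0.049). Tnfrsf11a, the gene of the receptor RANK, held 48.8, 65.5 and 78.6 against 37.3, 39.1 and 50.3 CPM in organoids. Its fall in m-ICc12 cells rests on M1, with 0.117 against 2.10 CPM, since the other 4 libraries held at most 0.0479 CPM. Tnfrsf11a was below background in m-ICc12 cells and passed the filter through organoids, so that no fold is read in m-ICc12 cells. The fitted difference of Tnfrsf11a, which rests on these few reads, was -3.83 ± 0.67 (adjusted p = 0.023), and -1.20 without M1 (adjusted p = 0.995). With a response called by adjusted p, only Guca2b had its fall in m-ICc12 cells and its rise in organoids both called.

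In the median, low levels of organoid genes in m-ICc12 cells fell from the plain-coded to the T-coded library in M1 and M3, but not in M2. There were 137 genes with a mean of at least 100 CPM in organoids and under 1% of that in m-ICc12 cells. Their median level, as a percentage of the organoid mean, was 0.706 in the plain-coded and 0.232 in the T-coded library of M1, 0.235 and 0.257 in M2, and 0.160 and 0.0826 in M3. In the MEF libraries, which are fibroblasts, the median was 0.137, 0.143 and 0.204%. The m-ICc12 response was below 0 for 109 of the 137 genes (79.6%), against 48.5% of all genes tested, with a median of -0.65. Of these 137 genes, 16 are among the 39. The part of this shift, which M2 did not show in the median, in the m-ICc12-only and opposite results was not tested. Without M1, 17 of the 28 members with a low level and 8 of the 11 expressed in both kept an adjusted p under 0.05. The counts were 22 and 10 without M2 and 20 and 6 without M3.

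Members near the threshold lost it with single cultures left out. When each of the 9 cultures was left out in turn, 15 of the 39 genes passed every time, among them Zyx, Cyba, Arhgef28, Itga2 and C3 of those expressed in both cell types. Socs2 passed in 5 of 9 fits, Tmem176b in 4, Uaca, Tspan8 and Dtx3l in 2 and Tcim in 1, although their differences moved little (1.29 to 1.42 for Socs2, -0.92 to -0.76 for Tmem176b, 0.69 to 0.89 for Uaca, 0.59 to 0.67 for Tspan8, 2.21 to 2.65 for Dtx3l and -1.04 to -0.91 for Tcim). Among the low members, Acot11 lost the threshold without M3, Arhgap32 without M3 or Z912 (-1.16 and -1.27), Mfap3l without Z909, Z910 or Z912 and Clca4b without Z910, M1 or M3. Ap1m2 had a difference of -1.10 without M1 (adjusted p = 0.49), Ceacam20 of 1.93 and Ces2g of 2.72 without M2, and Fabp2 of -1.61 without M1 (adjusted p = 0.33).

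**Figure D4:**
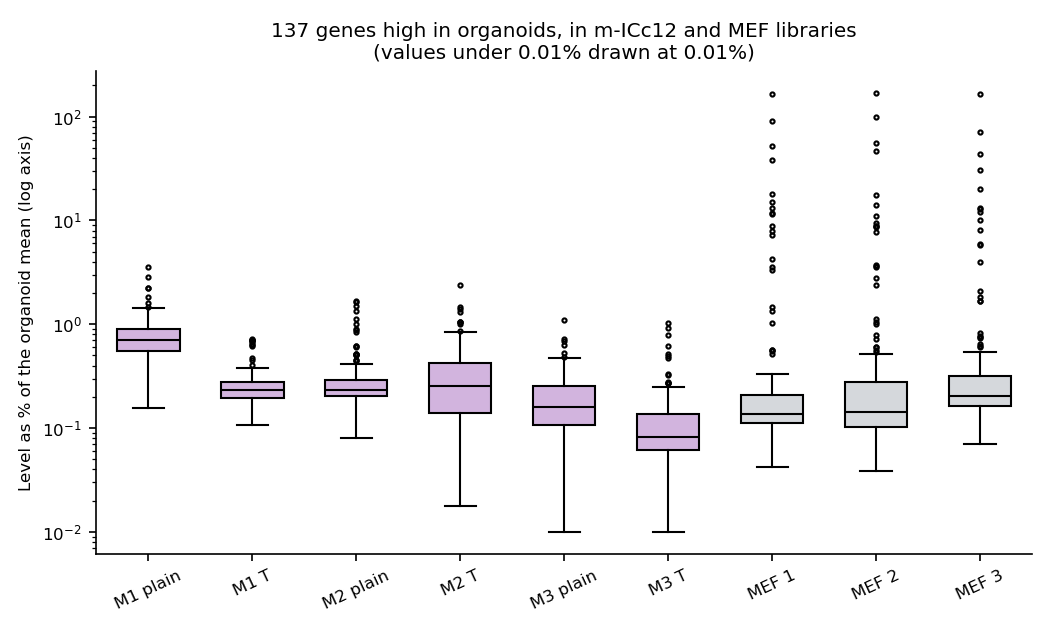
Level of the 137 genes that were high in organoids, in each m-ICc12 library (purple) and MEF library (grey), as a percentage of the organoid mean on a log axis. Boxes span the quartiles with the median as a line, and whiskers reach 1.5 times the box. The plain-coded library of M1 has the highest median (0.706%) and the T-coded library of M3 the lowest (0.0826%).

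GF organoids, whose libraries the interaction did not use, gave a measure of the organoid responses from other cultures. Of the 13 members with an organoid response, 11 were above background there. The others were St8sia6 and Mfap3l, with a higher T-coded library in 2 of 3 and 1 of 3 GF cultures. All 11 rose in GF organoids with an adjusted p under 0.05 (0.831% of 12152 genes passed in GF organoids) and in 3 of 3 cultures, with log2 responses from 0.62 to 6.55. Zyx rose by 0.93 ± 0.14, Cyba by 2.59 ± 0.20, Arhgef28 by 1.22 ± 0.26 and C3 by 6.55 ± 0.36 (SE, 3 cultures). Of the 25 m-ICc12-only genes, 2 passed the adjusted limit in GF organoids, namely Ccnd2 with -0.47 ± 0.08 and Cyp2b10 with 0.46 ± 0.10. Both lay under the fold threshold of 0.5. The classes were set without adjustment, and by that p limit 8 of the 25 passed in GF organoids. By the p and fold rule, Itga2 (-0.96 ± 0.29) and Acot11 (0.57 ± 0.23) responded in GF organoids. Itga2 thus fell there, whereas it rose in m-ICc12 cells. The difference was also computed with SR or SE organoids alone, against the same 3 m-ICc12 cultures, and since the genes were chosen on these cultures the values are a description. For Zyx they were -1.25 and -1.33, for Cyba -1.97 and -2.28, for Itga2 2.58 and 1.98 and for C3 -5.49 and -4.32 (SR and SE).

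**Figure D5:**
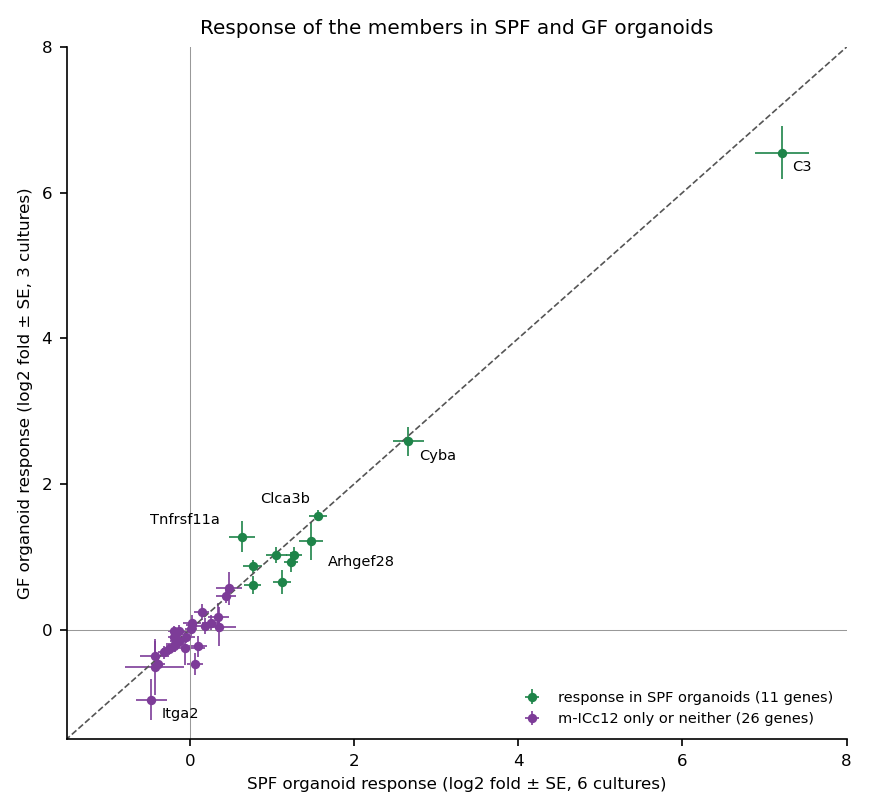
Log2 response (± SE) of the members above background in GF organoids, in SPF organoids (x axis, 6 cultures) and GF organoids (y axis, 3 cultures). Green points are the 11 members with a response in SPF organoids and purple points the other 26, with the dashed line at equal responses. The green points lie above 0 on both axes, from 0.62 to 6.55 in GF organoids.

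The pathway lists show where the members fall, and their counts are to be read against all genes tested, of which 0.292% were called and 6.03% passed the study's thresholds. In the list of TNF and NF-kB signalling, 0 of 39 tested genes differed by adjusted p and 6 passed the study's thresholds. Bcl3, a nuclear co-factor of NF-kB, came nearest with a difference of -1.31 (adjusted p = 0.086). The known targets Nfkbia, Tnfaip3, Nfkb2 and Relb rose in both cell types, by 2.70, 1.55, 1.83 and 1.58 in organoids and 2.09, 1.69, 1.10 and 1.89 in m-ICc12 cells. The adjusted p of their differences lay between 0.17 and 0.998, which does not show that they responded alike. Cxcl1, a neutrophil attractant, stayed at or under 2.58 CPM in organoids, with a log2 response of 3.77 ± 0.55, and rose by 1.83 ± 0.39 in m-ICc12 cells, from 27.4, 19.97 and 22.7 CPM in the plain-coded libraries of M1 to M3 to 93.7, 84.6 and 71.2 CPM in the T-coded ones (difference -1.94 ± 0.68, adjusted p = 0.41). Ccl2, a monocyte attractant, rose in m-ICc12 cells from 0.335 to 3.14 CPM up to 60.6 to 66.0 CPM and was at most 0.357 CPM in organoids.

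Among complement and acute-phase proteins 1 of 19 genes was called (C3) and 5 were past the study's thresholds, all with the higher response in organoids. The median difference of this list was -2.12, against 0.02 over all genes tested, and -3.61 over its 10 genes with both levels at least 5%. Of the genes that missed the adjusted threshold, Cp (ceruloplasmin) had a difference of -2.37 ± 0.59 (adjusted p = 0.14). Both medians take in fitted values of genes near 0 counts in 1 cell type and are no bounds. Antimicrobial and mucosal defence had 4 of 20 called (Clca3b, Clca4b, Tmem176b and Pglyrp1), all lower in m-ICc12 response, and a median of -0.90. Past the study's thresholds were 9 of the 20 (45%). A level in 1 cell type under 5% of the other was seen for 17 of these 20 genes and for 6 of the 9. Enterocyte and brush border genes had 4 of 27 called (Fabp2, Smim24, Myo1a and Muc13) and 15 past the study's thresholds (55.6%). Of the 15, 14 had the higher response in organoids, as did 495 of the 805 among all genes. The median response of the 27 genes was 0.02 in organoids and -0.67 in m-ICc12 cells. In the median the difference thus came from lower m-ICc12 values and not from a rise in organoids. In this list 23 of 27 genes, and 14 of the 15, had a level in 1 cell type under 5% of the other. Integrins and focal adhesion had 3 of 41 called, Zyx, Itga2 and Pdlim1, in both directions. The cell cycle list had 1 of 27 called (Ccnd2). No gene passed the adjusted test among 14 chemokines, 16 cytokines, 17 actin and SRF targets, 17 genes of MHC class I processing, 27 interferon response genes, 21 inflammasome and cell death genes or 15 stem and crypt genes, of which 2, 1, 2, 1, 3, 8 and 4 passed the study's thresholds. The share was between 5.88% (MHC class I processing) and 14.3% (chemokines) in these lists, except for 26.7% of the stem and crypt and 38.1% of the inflammasome and cell death genes, and 5 of the latter 8 and all 4 of the former had a level in 1 cell type under 5% of the other.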

How the data were processed

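RNA of the 18 libraries was compared as counts of reads per gene. The deposited counts are whole numbers without normalization for 22524 genes, made by the authors from poly-A selected RNA with a TruSeq kit, which the labels call stranded and the study's methods do not. Per the study's methods, reads were aligned to GRCm38 (Ensembl release 91) with STAR and counted with GenomicRanges, whereas the submitters' processing notes name bcl2fastq 2.19, Trimmomatic, STAR 2.5.4b, featureCounts and edgeR. The use of strand and of reads that align to several places is not given in the sources used here. Of the members, 6 share bases with another gene: Zyx with Epha1, Cyba with Gm20388, Acot11 with Fam151a, Tmem176b with Tmem176a, Uaca with Gm9869 and Dtx3l with Parp9.

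A gene was tested if 50% or more of the libraries in 1 group (cell type by code) held 10 counts or more, which 13340 genes did. Counts were scaled by TMM and fitted with edgeR 4.0.16 (R 4.3.3, quasi-likelihood F-test, 2-sided, Benjamini-Hochberg over all genes) with the culture as block. Standard errors were derived from the test statistic. Libraries were paired by the culture numbers that the titles give. Deviations from the group means correlated between the libraries of a culture with a mean r of 0.117 in organoids and 0.0426 in m-ICc12 cells. The lowest r of a pair was 0.0500 in organoids and -0.0035 in m-ICc12 cells. Between cultures the mean r was -0.106 and -0.255. Subtracting the group means pushes these last values below 0 by itself, so that they are no test of the pairing. No libraries were identical. For m-ICc12 cells nothing says that cultures were independent, so that p values measure the spread between these samples. Counts limit precision by counting error only, and 3 counts were taken as the detection floor.

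In simulated data on 13340 genes with this design, the fit recovered 34% of 100 genes with a log2 difference of 1 and 66% of 100 with 2, with 7.41% false calls. DESeq2 1.42.0 recovered 36% and 69% with 20.5% false calls, and the fit without the block 12% and 49% with 0% false calls.

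The members and the 14 pathway lists were chosen with earlier results of these data known. Genes were named by 4 rules. They comprise Itga2, Zyx, Cyba and Smim24, up to 10 genes of smallest p per pattern with 1 direction in all responding cultures (all opposite genes), the members called in the lists, and 6 known TNF targets. The GF fit (edgeR, culture as block) and the split of levels at 5% were added after the data were seen. Coordinates are from GENCODE vM21 (GRCm38), in which 22214 of the gene IDs were found. The proteome was not analysed here.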

Additional observations from a re-analysis of the deposited data

Results flagged for a closer look

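Each of the 39 members was called by the test of the difference itself (edgeR, adjusted p under 0.05), by which the genes were chosen. The differences of log2 responses, m-ICc12 minus organoid and by file code, were as follows. Among the organoid-only genes they were Zyx -1.29, St8sia6 -6.30, Cyba -2.13, Arhgef28 -1.66, Clca3b -1.30, Mfap3l -2.41, Tmem176b -0.87 and Tcim -0.97. Among the m-ICc12-only genes expressed in both cell types they were Itga2 2.27, Socs2 1.34, Tspan8 0.63 and Dtx3l 2.44. The m-ICc12-only genes with a low level in m-ICc12 cells had Pdlim1 -4.18, Muc13 -1.77, Smim24 -1.63, Mall -2.76, Ces2a -1.25, Ces2e -1.20, Myo1a -1.54, Acot11 -3.68, Arhgap32 -1.33, Tmem45b -1.96, Ccnd2 -1.29, Cyp2b10 -2.20, Ces2g 3.98, Ceacam20 6.47, Aldh1b1 -0.99, Abcb1a -1.22, Ap1m2 -2.41, Cldn3 -2.35, 2810459M11Rik -6.72, Plch2 -1.84 and Fabp2 -2.04. The opposite genes had Guca2b -1.68, Tnfrsf11a -3.83, Clca4b -1.63 and Pglyrp1 -2.05. C3, which rose in both, had -5.11, and Uaca 0.75. The values of St8sia6, Mall, Acot11, Ces2g, Ceacam20, 2810459M11Rik, Tnfrsf11a and Mfap3l come from libraries at or near 0 counts. They depend on the prior count of the fit and are no bounds. All of these but Mfap3l, and also Tmem45b and Plch2, were below background in 1 cell type. They passed the filter through the other cell type, so that their fitted differences do not measure a response in both. The value of Pdlim1 rests on 8, 5 and 2 counts in the T-coded m-ICc12 libraries of M1 to M3.

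A search for single organoid cultures far from the others (Dixon's criterion, over the responses of 45 genes) found 0.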

How the results depend on the processing

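The count of 39 genes changed with most settings. The counts below are of all members and then, in order, of organoid-only, m-ICc12-only, opposite, same-direction and neither genes where these moved by over 1.5 times. DESeq2 gave 167 (27, 108, 10, 4 and 18), with 37 of the 39 shared. The members that DESeq2 did not call were St8sia6 and Ceacam20 (DESeq2 adjusted p = 0.44 and 0.063). Without a filter on low counts there were 62 (13 organoid only, 40 m-ICc12 only and 2 same direction), with all 39 shared. Genes above background in both cell types gave 28, all shared (16 m-ICc12 only, 2 opposite, 2 same direction and 2 neither). All 27 libraries in 1 fit gave 59 (44 m-ICc12 only), with 38 shared. Separate responses of the facilities, averaged, gave 29 (16 m-ICc12 only and 0 neither), with 26 shared. SR organoids alone gave 6 (2 organoid only, 2 m-ICc12 only, 1 opposite and 0 neither) and so did SE organoids (2, 2, 1 and 0), and Muc13, C3 and Pdlim1 were called in both. With responses called by adjusted p, 1 gene was opposite and 2 had the same direction.

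With the culture pairing left out (no replicate block), 7 genes differed (2 organoid only, 4 m-ICc12 only, 0 opposite and 0 neither): Zyx, Smim24, Socs2, Cyba, Itga2, C3 and Pdlim1, with 799 genes at an unadjusted p of at most 0.05 against 959 with the block.

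Leaving out each culture gave 23 to 109 genes (5 to 9 organoid only, 11 to 89 m-ICc12 only, 3 to 8 opposite, 1 to 3 same direction and 0 to 2 neither). It was 109 without M2, of which 32 were among the 39, 53 without M1 (25) and 57 without M3 (26), and 23 without Z909, Z910 or Z912. Zyx, Cyba, Itga2, Smim24, Arhgef28, Clca3b, C3, Guca2b, Pdlim1, Muc13, Mall, Myo1a, Ces2a, Ces2e and St8sia6 passed in all 9 of these fits. For St8sia6 this is no sign of a stable response, since its organoid counts lay nearly all in the T-coded libraries of Z909 and Z911.

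Chosen after seeing the data, leaving out Lars2 gave 38 (2 same direction). A mean of at least 1 CPM in both cell types gave 24 (484 by the study's thresholds, with 5, 13, 2, 2 and 2 by pattern). A lower level of at least 5% of the higher gave 7 (465, with 3, 2, 0, 2 and 0). The cause of these changes was not tested, apart from the genes that the filters leave out.

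By sample label every difference reverses: Pdlim1 4.18, C3 5.11, Muc13 1.77, Zyx 1.29, Guca2b 1.68, Smim24 1.63, St8sia6 6.30, Mall 2.76, Itga2 -2.27, Cyba 2.13, Arhgef28 1.66, Ces2a 1.25, Ces2e 1.20, Myo1a 1.54, Acot11 3.68, Clca3b 1.30, Arhgap32 1.33, Tmem45b 1.96, Mfap3l 2.41, Socs2 -1.34, Tnfrsf11a 3.83, Ccnd2 1.29, Clca4b 1.63, Cyp2b10 2.20, Ces2g -3.98, Ceacam20 -6.47, Aldh1b1 0.99, Tmem176b 0.87, Abcb1a 1.22, Uaca -0.75, Ap1m2 2.41, Cldn3 2.35, 2810459M11Rik 6.72, Tcim 0.97, Tspan8 -0.63, Dtx3l -2.44, Plch2 1.84, Pglyrp1 2.05 and Fabp2 2.04. No other alternative turned the sign of a member. Depth limits the members with levels under 1 CPM in m-ICc12 cells, where single libraries hold few counts.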
